A study of Rattus norvegicus with 125 samples.

Results

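The kidney response 24 h after phosphine gas (PH3) was described from 8 of the 125 arrays in the series. They were chosen by their labels alone, as the kidney arrays taken 24 h after exposure: 4 from rats that had breathed PH3 and 4 from rats that had breathed air. Of the 31139 probe sets on the array, the 19068 with 1 gene symbol were used, and they represented 13438 genes. All animals were adult male Sprague-Dawley rats, exposed with the whole body for 40 min. The PH3 group (rats 70, 85, 91 and 149) received 387 ppm, a concentration-time product of 15480 ppm × min that equals 0.67 of the median lethal product LCt50. The Air group (rats 83, 89, 90 and 145) went through the same 40 min without the gas. Each array carries RNA of whole frozen kidney tissue from 1 rat, all euthanised under ketamine and xylazine, so fewer cells of a type and less RNA per cell cannot be told apart. A single dose, below the lethal product, was given, and no genetic change is stated for either group. Values are RMA signals, which are on a log2 scale, so that a difference of 1 is a doubling of signal. Kidney arrays taken 1, 3 and 6 h after the same exposure, 4 per exposure and time and all from other rats, served to set the 24 h values in time.

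The tissue label held on all 8 arrays. Umod, made by the thick ascending limb, lay between 12.73 and 13.15 on the kidney arrays at 24 h and was at most 4.31 on the 93 arrays of other organs. Slc34a1, the phosphate carrier of the proximal tubule, lay between 12.83 and 12.99, against at most 5.37 elsewhere. Aqp2, the water channel of the collecting duct, lay between 10.94 and 11.48, against at most 4.51 elsewhere. The arrays were not alike in other ways. Correlations between them over all genes ran from 0.972 to 0.994. The first principal component held 57.5% of the variance and separated PH3 rat 91 and Air rats 83 and 90 from the other 5 arrays. The same 3 arrays had some of the largest gaps between the 3′ and 5′ control probe sets of actin, a measure that grows as RNA is degraded: 3.62 in PH3 rat 91, and 3.52 and 3.35 in Air rats 83 and 90. PH3 rat 149 was also at 3.46, while the other 4 arrays lay between 2.64 and 3.27. The actin gap averaged 3.28 in PH3 and 3.06 in Air, a difference of 0.22 (exact two-sided permutation test over 70 splits, p = 0.429, and 0.714 adjusted over 4 quality measures, where the smallest possible p is 0.0286). Genes of neighbouring tissues also varied between arrays. Albumin, made by liver, read 6.10, 4.59, 8.11 and 10.97 in PH3 rats 70, 85, 91 and 149, against 10.51, 3.31, 3.62 and 10.71 in Air rats 83, 89, 90 and 145. Ucp1, a gene of brown fat, read 4.57, 8.01, 3.94 and 6.79 in the PH3 rats, against 8.08, 4.79, 7.59 and 8.39 in the Air rats. Both genes were high in arrays of both groups, and their levels overlapped.

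**Figure D1:**
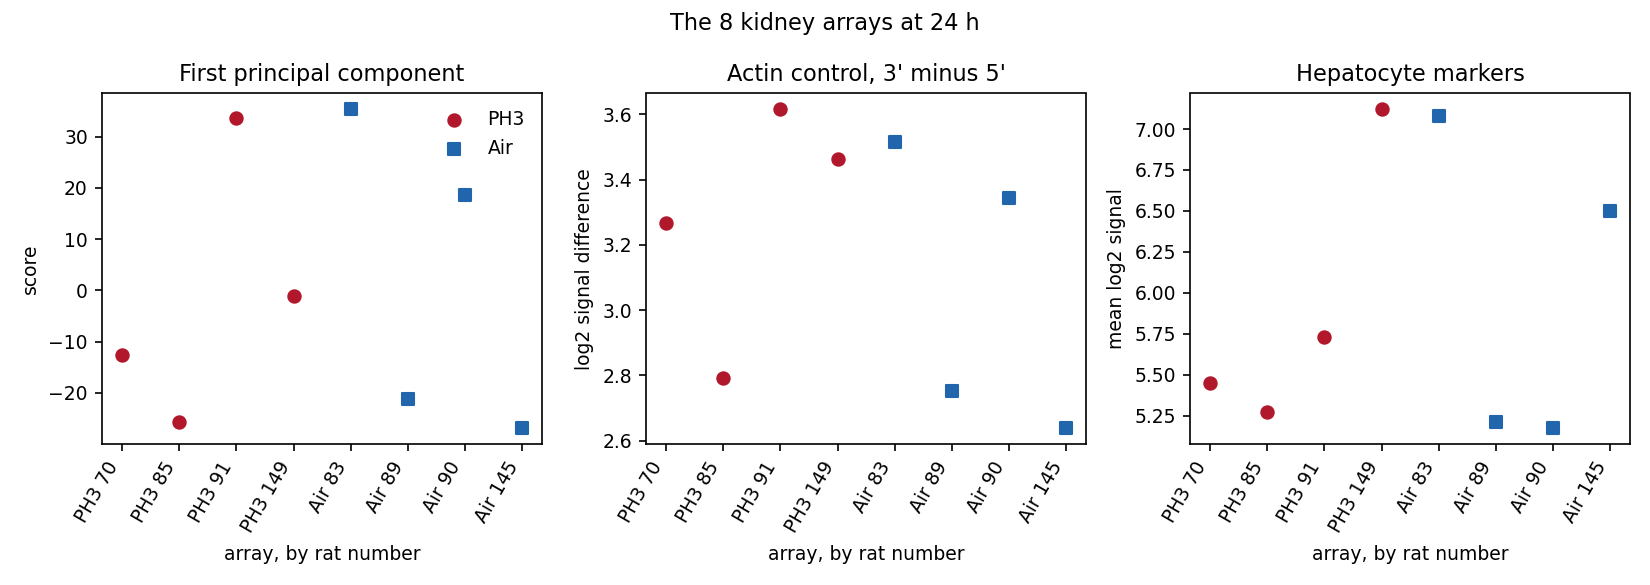
Each point is 1 of the 8 kidney arrays at 24 h, PH3 rats (red circles) left of Air rats (blue squares), with the score on the first principal component, the 3′ minus 5′ log2 difference of the actin control and the mean log2 signal of 13 measured hepatocyte markers. PH3 rat 91 and Air rats 83 and 90 have the 3 highest scores, between 18.54 and 35.32, and PH3 rat 149 and Air rats 83 and 145 have hepatocyte marker means of 7.12, 7.08 and 6.4996, against 5.18 to 5.73 on the other arrays.

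Phosphine is a fumigant that blocks cytochrome c oxidase, the last enzyme of the mitochondrial electron transport chain, and the kidney tubule depends heavily on mitochondria for its salt transport. Errfi1, also called Mig6, encodes a scaffold protein that binds and inhibits the EGF receptor as a feedback on growth factor signalling. Depp1 is a forkhead transcription factor target, known in human and mouse cells for links to fasting, autophagy and reactive oxygen. Several of the genes described below are induced by glucocorticoid hormones, which also set the phase of the molecular clock in peripheral organs. In that clock, Bmal1 pairs with Clock or Npas2 to activate Per, Cry, Dbp and Nr1d genes, and the Per, Cry and Nr1d proteins then repress Bmal1 or its activity.

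The stretches of 250 bases before the start of 3 genes are shown, taken from RefSeq on build GRCr8, because Errfi1 and Depp1 carry the 24 h result and Bmal1 is the clock gene that was lowest relative to Air. Errfi1 lies on the plus strand at chr5:166606591-166606840, Depp1 on the plus strand at chr4:151583121-151583370 and Bmal1 on the plus strand at chr1:176766078-176766327. Capitals mark matches on either strand to any of 6 motifs: the glucocorticoid receptor core AGAACA, the cyclic AMP response core TGACGT, the E-box CACGTG, the ROR response element TAGGTCA, the forkhead site GTAAACA and the TATA box TATAAA.
Errfi1: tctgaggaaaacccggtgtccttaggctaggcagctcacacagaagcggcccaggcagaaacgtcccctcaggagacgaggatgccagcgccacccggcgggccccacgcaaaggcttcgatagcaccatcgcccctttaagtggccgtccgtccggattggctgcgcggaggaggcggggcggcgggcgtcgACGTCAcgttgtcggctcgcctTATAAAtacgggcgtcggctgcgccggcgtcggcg
Depp1: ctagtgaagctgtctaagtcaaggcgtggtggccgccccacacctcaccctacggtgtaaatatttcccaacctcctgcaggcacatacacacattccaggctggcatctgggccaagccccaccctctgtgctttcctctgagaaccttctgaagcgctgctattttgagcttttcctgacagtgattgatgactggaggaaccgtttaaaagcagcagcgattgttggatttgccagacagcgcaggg
Bmal1: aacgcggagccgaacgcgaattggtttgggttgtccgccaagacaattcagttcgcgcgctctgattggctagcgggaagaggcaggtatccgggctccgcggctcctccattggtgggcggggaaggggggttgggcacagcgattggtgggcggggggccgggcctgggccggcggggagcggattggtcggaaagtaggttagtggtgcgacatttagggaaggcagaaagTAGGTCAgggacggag
Errfi1 held the cyclic AMP response core on the minus strand, at bases -57 to -52 counted back from the start, and a TATA box at -35 to -30. Among all 33469 RefSeq windows of this length, 6.95% held TGACGT and 12.9% held TATAAA. Bmal1 held TAGGTCA at bases -16 to -10, as did 2.26% of windows. No letters of the 6 motifs matched in the Depp1 window. The other motifs occurred in 17.5% (AGAACA), 5.59% (CACGTG) and 3.21% (GTAAACA) of windows. Matches in the 3 windows did not overlap each other. A match describes letters only.

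At 24 h the kidneys of the PH3 rats differed from those of the Air rats in few genes. Errfi1 and Depp1 rose and were the only genes of 13438 whose adjusted p was under 0.05, which is 0.0149% of genes. None was called lower. Without adjustment, 318 genes (2.37%) had p under 0.05, 187 of them higher (1.39%) and 131 lower (0.975%) in PH3. The 4 PH3 arrays lay wholly above the 4 Air arrays for 140 genes (1.04%) and wholly below for 95 (0.707%). In the same fit, 30 genes (0.223%) had been called at 1 h, 14 (0.104%) at 3 h and 17 (0.127%) at 6 h. A further 11980 probe sets without a single gene symbol gave 0 calls and 307 with unadjusted p under 0.05.

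Errfi1 read 11.66, 11.99, 11.85 and 11.72 in PH3 rats 70, 85, 91 and 149, against 10.78, 10.85, 10.71 and 11.06 in Air rats 83, 89, 90 and 145. Every PH3 kidney was above every Air kidney, and both groups were tight. The difference was 0.95 ± 0.13 (SE) on the log2 scale, a 1.94-fold rise, with a 95% interval of 0.68 to 1.23 and an adjusted p of 0.00129. Errfi1 is a bright gene here: its Air level of 10.85 stands far above the median of all genes, 7.04.

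Depp1 read 8.73, 8.81, 8.29 and 8.95 in the 4 PH3 rats, against 6.90, 6.95, 7.21 and 7.25 in the 4 Air rats. The lowest PH3 kidney, rat 91, was still above the highest Air kidney. The difference was 1.62 ± 0.25, a 3.08-fold rise, with a 95% interval of 1.10 to 2.14 and an adjusted p of 0.00415. It was the largest rise of any gene measured at 24 h. Without PH3 rat 149 and Air rat 145, which had the highest albumin signals, Errfi1 differed by 1.05 (adjusted p = 0.00467) and Depp1 by 1.60 (adjusted p = 0.0908). Without PH3 rat 91 and Air rats 83 and 90, the differences were 0.83 and 1.73 with 3 PH3 and 2 Air arrays left, and neither passed (adjusted p = 0.379 and 0.277). With the 3′ to 5′ gap as a covariate they were 0.97 and 1.59, and both passed (adjusted p = 0.000552 and 0.00438).

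Both genes had also been higher in PH3 at earlier times, in other rats. Errfi1 exceeded Air by 0.62 at 1 h (adjusted p = 0.0406), by 0.69 at 3 h (adjusted p = 0.0242) and by 0.14 at 6 h (adjusted p = 0.885). Depp1 exceeded Air by 0.68 at 1 h (adjusted p = 0.408), by 1.31 at 3 h (adjusted p = 0.0242) and by 0.21 at 6 h (adjusted p = 0.900). The Air level moved more between times than the PH3 level did. Errfi1 averaged 11.91, 11.48, 11.82 and 11.81 in PH3 at 1, 3, 6 and 24 h, against 11.29, 10.79, 11.69 and 10.85 in Air. Depp1 averaged 8.33, 8.40, 8.55 and 8.70 in PH3 at these times, against 7.65, 7.09, 8.34 and 7.08 in Air. The small gap at 6 h thus came with the highest Air levels of both genes. Neither the Errfi1 effect nor the Depp1 effect differed beyond the threshold between 24 h and the mean of the earlier times (differences of 0.47 ± 0.15 and 0.89 ± 0.29, adjusted p = 0.877 for both).

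**Figure D2:**
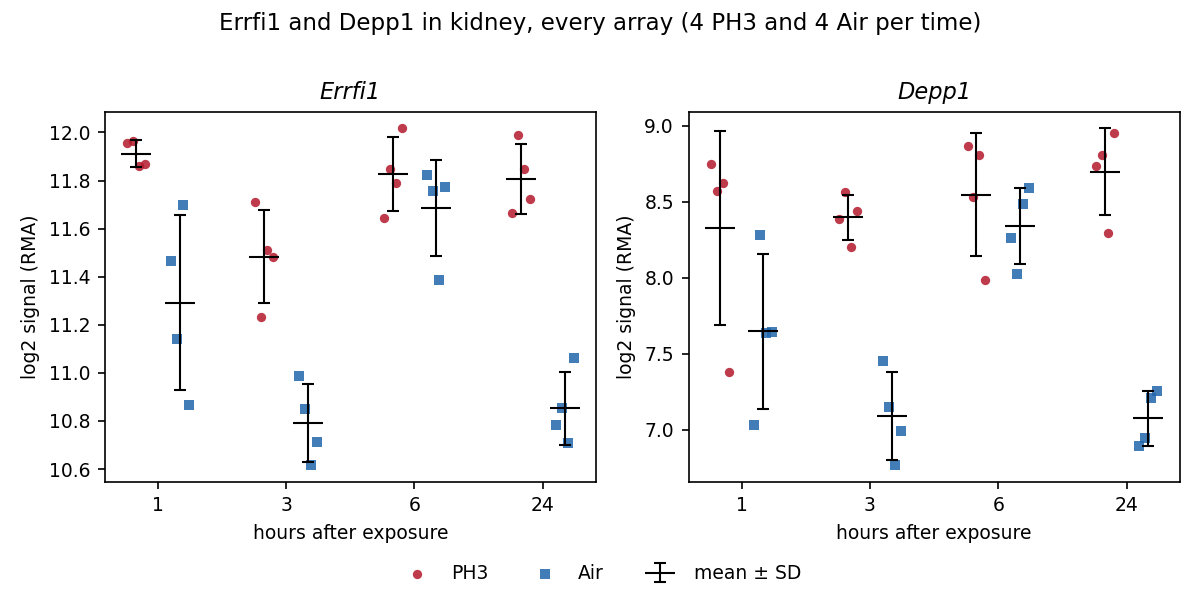
Log2 signal of Errfi1 and Depp1 in every kidney array at 1, 3, 6 and 24 h, with PH3 rats (red circles) left of Air rats (blue squares) and black marks for the mean ± SD of 4 arrays. At 24 h the PH3 arrays lie between 11.66 and 11.99 for Errfi1 and between 8.29 and 8.95 for Depp1, above all Air arrays, while at 6 h the groups overlap.

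Of the EGF receptor ligands and feedback genes, 18 were measured and Errfi1 alone passed the test. Their median difference was -0.0003, against 0.004 over all genes, and 9 of 18 were higher. Egfr itself averaged 6.38 in PH3 and 6.46 in Air. The feedback phosphatase Dusp6 averaged 9.13 in PH3 and 9.49 in Air, and the EGF receptor ligands Areg and Tgfa differed by 0.33 and -0.33. No other member had an unadjusted p under 0.05.

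The next 8 genes by p among those higher in PH3 included glucocorticoid-responsive and clock genes, and none of them passed the test. Gabbr2, which was lower in PH3 and is described below, had a smaller p than 5 of these 8. Per1, a clock repressor whose gene is also switched on directly by glucocorticoids, read 8.29, 7.98, 8.54 and 8.04 in the PH3 rats, against 6.76, 6.48, 7.60 and 6.49 in the Air rats. Air rat 90 was the highest of its group by a wide margin, and the groups did not overlap. The difference was 1.38 ± 0.29 with an adjusted p of 0.206, and it passed without Air rat 90 (1.64, adjusted p = 0.0208). Klf9, a transcription factor induced by glucocorticoids, read 11.69, 11.53, 11.61 and 11.51 in PH3, against 11.12, 11.08, 11.33 and 10.95 in Air (0.46 ± 0.11, adjusted p = 0.481). Sgk1, the kinase through which steroid hormones raise sodium channel activity in the collecting duct, read 11.27, 10.67, 11.13 and 11.07 in PH3, against 9.91, 9.86, 10.63 and 10.14 in Air (0.90 ± 0.23, adjusted p = 0.752). The Sgk1 groups almost met, at PH3 rat 85 and Air rat 90. Nfkbia, the inhibitor of the inflammatory factor NF-kappa-B, read 9.78, 9.71, 9.77 and 9.90 in PH3, against 9.18, 9.17, 9.39 and 9.40 in Air (0.50 ± 0.12, adjusted p = 0.481). Zfp36, which promotes decay of cytokine mRNAs, averaged 8.79 ± 0.25 in PH3 and 7.99 ± 0.22 in Air (SD, n = 4 each). Txnip, which binds thioredoxin and restrains glucose uptake, averaged 12.03 in PH3 and 11.62 in Air. In all 8 of these genes every PH3 array was above every Air array, which was true of 1.04% of all genes and follows in part from choosing the genes by p.

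Over the glucocorticoid list as a whole, 21 of 26 measured targets were higher in PH3, with a median difference of 0.24, against 51.44% of all genes and a median of 0.004. Errfi1, a member of this list too, was the only one that passed the test. Without adjustment, 8 were higher and 1 was lower at p under 0.05. Besides those above they included Tsc22d3, also called Gilz, a mediator of anti-inflammatory steroid action, which averaged 10.24 in PH3 and 9.72 in Air. The transcription factor Cebpd averaged 6.68 in PH3 and 6.20 in Air, and metallothionein Mt2A 12.84 in PH3 and 12.62 in Air. The transcriptional repressor Bcl6 was the member lower in PH3, at 8.74 against 9.47 in Air. Fkbp5, a chaperone of the glucocorticoid receptor that is commonly used as a readout of the hormone, read 7.37, 6.81, 7.18 and 7.17 in PH3, against 7.20, 6.57, 7.02 and 6.36 in Air. Its groups overlapped, with a difference of 0.34 ± 0.30 and an interval of -0.27 to 0.96. Earlier it had exceeded Air by 1.19 at 1 h, by 1.58 at 3 h (adjusted p = 0.0231) and by 1.01 at 6 h. The list's median kept its sign without PH3 rat 91 and Air rats 83 and 90, at 0.34, and without PH3 rat 149 and Air rat 145, at 0.14.

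The clock genes had the highest median of the 29 pathway lists, 0.36 over 18 measured members. Of these, 14 were higher and 4 were lower in PH3. At an unadjusted p under 0.05, 8 were higher and 3 were lower, but none passed after adjustment. Over all genes, 51.44% were higher, and 1.39% were higher and 0.975% lower at that p. The members lower in PH3 were the activators Bmal1 and Npas2, the repressor Cry1 and Nfil3, which represses D-box genes. Bmal1 read 5.62, 5.71, 5.33 and 5.02 in PH3, against 6.17, 6.78, 6.40 and 6.84 in Air, with no overlap (-1.13 ± 0.32, unadjusted p = 0.00133). Npas2 read 7.14, 6.31, 7.23 and 6.49 in PH3, against 7.89, 7.50, 8.18 and 7.47 in Air (-0.97 ± 0.38). Other targets of Bmal1 and its partners, unlike Cry1, were higher in PH3. Dbp, an output transcription factor of the clock, read 9.05, 8.79, 9.23 and 9.79 in PH3, against 8.23, 7.71, 7.97 and 8.16 in Air (1.198 ± 0.33). Per3 read 7.62, 7.70, 6.99 and 8.11 in PH3, against 6.35, 6.43, 5.99 and 6.87 in Air (1.19 ± 0.31, adjusted p = 0.772). Usp2, a clock-controlled deubiquitinase, read 8.40, 8.15, 8.50 and 8.81 in PH3, against 7.81, 7.31, 7.94 and 6.75 in Air (1.01 ± 0.29). Per2 and Nr1d1 differed by 0.58 and 0.72 with overlapping arrays, and Clock itself by 0.03. Without PH3 rat 149 and Air rat 145, 11 of 18 members were higher, the median was 0.39, and 5 were higher and 3 lower at an unadjusted p under 0.05. Without PH3 rat 91 and Air rats 83 and 90, 13 of 18 were higher, the median was 0.42, and 8 were higher and 1 lower at that p. Npas2, Usp2, Per2, Nr1d1 and Cry1 were picked from the list after their values were seen.

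**Figure D3:**
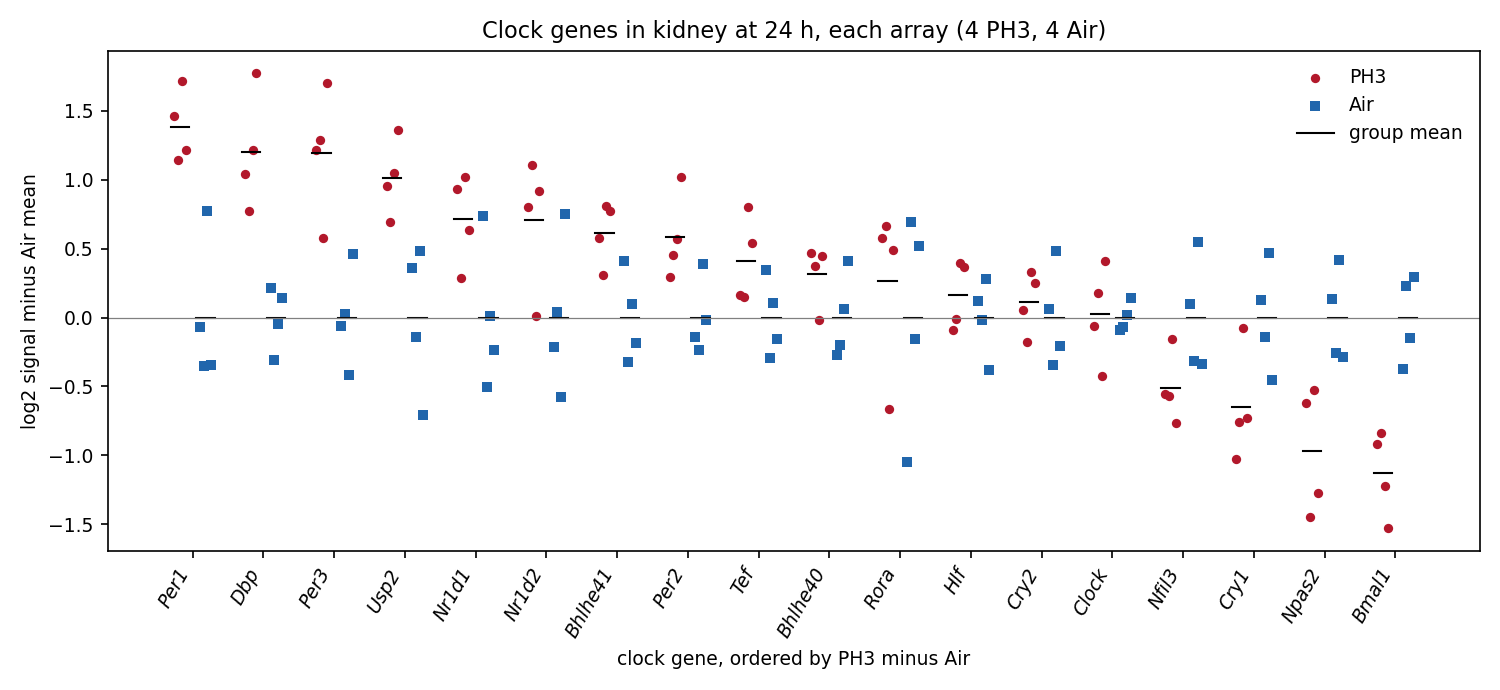
Log2 signal of the 18 measured clock genes in the 8 kidney arrays at 24 h, each minus the gene's mean over the Air rats, with PH3 (red circles) left of Air (blue squares) and black lines for the means of 4 arrays. Per1, Dbp, Per3 and Usp2 lie above Air without overlap at the left, and Npas2 and Bmal1 lie below Air without overlap at the right.

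At the earlier times the medians of the clock list were 0.09 at 1 h, 0.11 at 3 h and 0.06 at 6 h, over members that differed in both directions. Cry1 differed by 1.07 at 3 h and 0.91 at 6 h, against -0.65 at 24 h, and Per1 by 1.04 at 3 h, and none of these passed. Levels also moved with time in the Air kidneys. Bmal1 averaged 5.36, 4.73, 4.44 and 5.42 in PH3 at 1, 3, 6 and 24 h, against 5.13, 5.16, 4.27 and 6.55 in Air. Dbp averaged 9.25, 9.92, 10.10 and 9.21 in PH3 at these times, against 9.72, 9.73, 10.28 and 8.02 in Air. At 24 h both groups thus had their highest Bmal1 and lowest Dbp means, in PH3 only just beyond its means at 1 h. The Air means of these genes at 24 h stood further from those of the other times than the PH3 means did. The effect at 24 h minus the mean earlier effect was 1.38 ± 0.36 for Per3 and 1.36 ± 0.38 for Dbp (adjusted p = 0.497 and 0.651), so no difference between times passed. Animals were kept on a light/dark cycle, and the labels give no clock time for exposure or tissue collection. The part of time of day in these values was not tested.

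No gene was called lower in PH3. The 10 with the smallest p in that direction, none of which passed, were Gabbr2, Bmal1, Kif1b, Scn3a, Gfpt2, Apln, Col6a3, Rab31, Rnf125 and Rd3l. Gabbr2, a subunit of the GABA-B receptor, read 4.27, 4.42, 4.67 and 4.35 in PH3, against 5.299, 5.16, 6.15 and 4.80 in Air (-0.92 ± 0.22, adjusted p = 0.557). Its PH3 level was near that of both groups at 1, 3 and 6 h, where group means lay between 4.14 and 4.63, so the 24 h Air kidneys stood apart. A dimmer probe set of Gabbr2 differed by -0.02. Apln, which encodes the vasoactive peptide apelin, read 6.37, 6.74, 6.51 and 5.51 in PH3, against 7.28, 6.83, 7.26 and 7.22 in Air, and was also lower at 1, 3 and 6 h, by 0.73, 0.74 and 0.38, without passing. A second Apln probe set, nearly as bright over the kidney arrays (mean 6.01 against 6.48), did not share the fall at 24 h and differed by -0.07 ± 0.17. Gfpt2, an enzyme of hexosamine synthesis, averaged 4.62 in PH3 and 5.22 in Air, and the ubiquitin ligase Rnf125 averaged 6.70 in PH3 and 7.67 in Air. Col6a3, a chain of collagen VI, averaged 9.34 in PH3 and 9.72 in Air, and the vesicle GTPase Rab31 averaged 7.60 in PH3 and 8.06 in Air. Kif1b, Scn3a and Rd3l averaged 3.56, 3.67 and 3.63 in PH3 and 3.83, 4.06 and 4.01 in Air, below the 25th percentile of all genes, 4.54.

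Several stress genes called in the first hours overlapped between the groups at 24 h. Of the 49 genes called in kidney at 1, 3 or 6 h, 2 were called at 24 h, namely Errfi1 and Depp1. Of the 49, 7 (14.3%) had an unadjusted p under 0.05, against 2.37% of all genes, and the median size of the 24 h difference was 0.16, against 0.08 over all genes. Those 7 were Errfi1, Depp1, Nfkbia, Slc25a25, Stradb, Mcl1 and Cwc27. The 49 were chosen by p in the same fit, where all times share each gene's estimate of spread. The 14.3% is thus not independent of that choice. Slc25a25, an ATP and phosphate carrier of the inner mitochondrial membrane that was picked after its values were seen, read 8.59, 9.27, 9.36 and 9.22 in PH3, against 8.40, 7.64, 7.89 and 7.90 in Air. The groups did not overlap, and the difference of 1.16 ± 0.33 had an unadjusted p of 0.00165 and did not pass, after 1.74 at 6 h (adjusted p = 0.0332). Tnfrsf12a, the receptor for the cytokine TWEAK and a gene of injured tubule cells, read 6.15, 6.28, 6.16 and 6.22 in PH3 at 24 h, against 6.48, 5.93, 7.07 and 6.23 in Air. The groups overlapped, and the difference was -0.22 ± 0.29. At 1, 3 and 6 h it had exceeded Air by 1.75, 2.44 and 1.48, all past the threshold (adjusted p = 0.00321, 6.63e-05 and 0.0338). The 24 h effect minus the mean earlier effect was -2.11 ± 0.34 on the log2 scale, and that difference itself passed (adjusted p = 0.0132).

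Atf4, the transcription factor at the centre of the integrated stress response, behaved alike on a smaller scale. It read 10.14, 10.35, 10.04 and 9.89 in PH3 at 24 h, against 10.20, 10.16, 10.09 and 10.43 in Air, and differed by -0.11 ± 0.11. It had exceeded Air by 0.63, 0.60 and 0.54 at 1, 3 and 6 h (adjusted p = 0.00451, 0.0172 and 0.0354), and the change between times was -0.70 ± 0.13 (adjusted p = 0.0474). Tnfrsf12a and Atf4 were the only genes of 13438 (0.0149%) that passed this comparison of times, while 545 (4.06%) had an unadjusted p under 0.05. The Tnfrsf12a difference lost its call without any of 5 single arrays, PH3 rats 70, 91 and 149 and Air rats 83 and 90, with adjusted p between 0.0507 and 0.0597, while its size stayed between -1.90 and -2.12. The Atf4 difference passed in the leave-one-out fits only without PH3 rat 85.

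Ddit3, also called Chop, which acts downstream of Atf4, averaged 7.998 ± 0.06 in PH3 and 7.88 ± 0.20 in Air at 24 h (SD, n = 4 each), after exceeding Air by 1.49 at 1 h (adjusted p = 9.4e-05) and by 1.17 at 3 h (adjusted p = 0.00179). Gdf15, a circulating signal of cell stress, had the widest spread: it read 8.04, 8.87, 7.96 and 6.94 in PH3 at 24 h, against 7.11, 7.51, 7.79 and 6.99 in Air. Of the PH3 rats, 3 were above all Air rats and rat 149 was below all of them. The difference of 0.60 ± 0.34 did not pass, against earlier effects of 2.22, 2.39 and 2.39 that all did. Hmox1, heme oxygenase 1, which degrades heme and is induced by oxidants, read 6.24, 6.09, 6.58 and 6.18 in PH3, against 6.72, 6.54, 6.98 and 6.53 in Air, a difference of -0.42 ± 0.30 after earlier differences of 1.08, 1.28 and 0.79. Unlike those of Gdf15, none of the earlier Hmox1 differences passed (adjusted p = 0.190, 0.120 and 0.426 at 1, 3 and 6 h). For Ddit3, Gdf15 and Hmox1 the comparison of 24 h with the earlier times did not pass (adjusted p = 0.203, 0.235 and 0.248). Gabbr2, Cemip, a hyaluronan-binding protein, and Tacc2, a centrosome protein, ranked by p between Ddit3 and Gdf15 and did not pass either (adjusted p = 0.203, 0.218 and 0.235).

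**Figure D4:**
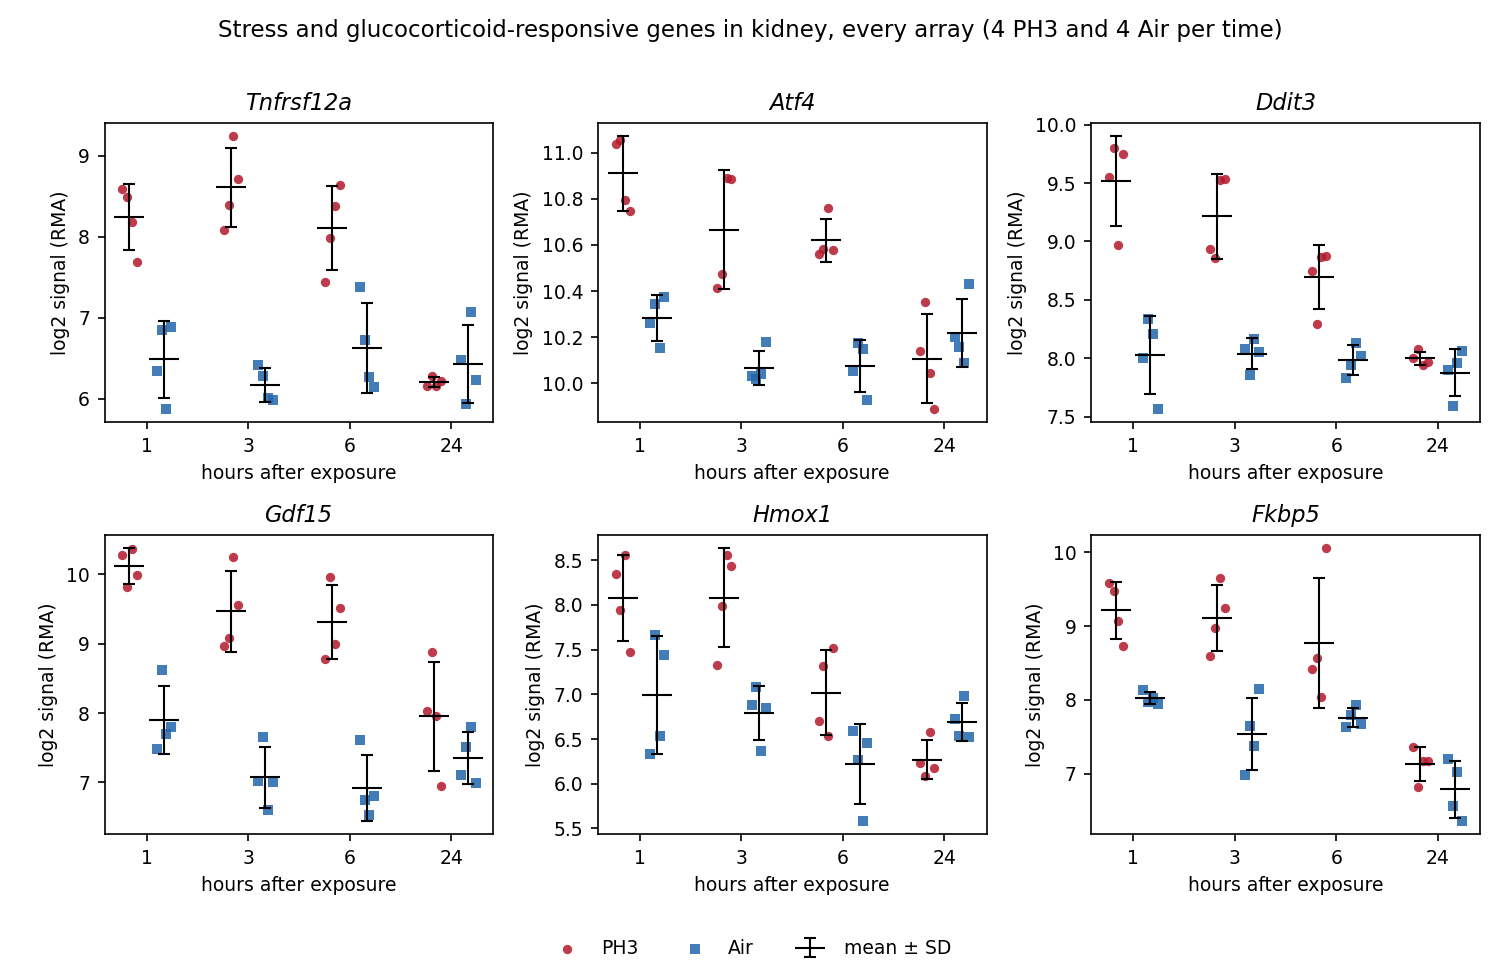
Log2 signal of 6 genes in every kidney array at 1, 3, 6 and 24 h, with PH3 rats (red circles) left of Air rats (blue squares) and black marks for the mean ± SD of 4 arrays. At 24 h the groups overlap for Tnfrsf12a, Atf4, Ddit3, Gdf15, Hmox1 and Fkbp5, whereas Tnfrsf12a averaged 8.24, 8.61 and 8.11 in PH3 at 1, 3 and 6 h, against 6.49, 6.17 and 6.63 in Air.

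Markers of tubule injury gave no call. Of 25 measured, 9 were higher in PH3 and the median difference was -0.05, against 51.44% higher and a median of 0.004 over all genes. Havcr1, also called Kim-1, the standard transcript of proximal tubule injury, read 4.11, 4.04, 4.004 and 4.56 in PH3, against 4.10, 5.56, 4.30 and 4.25 in Air, so that the highest kidney was an Air one, rat 89. Its interval, -1.90 to 1.15, allows a change of either sign. That interval uses the spread over all times, and 1 Air kidney at 6 h read 10.335 (SD of its group 3.05). The SDs at 24 h were 0.26 in PH3 and 0.68 in Air. The 24 h means of Havcr1, 4.18 in PH3 and 4.55 in Air, lay near the 25th percentile of all genes, 4.54. Lcn2, the neutrophil gelatinase-associated lipocalin released by injured distal tubule, read 5.84, 5.97, 6.65 and 5.55 in PH3, against 5.72, 6.47, 6.58 and 6.19 in Air (interval -1.41 to 0.93). Vnn1, a pantetheinase, was the member with the largest positive difference, 0.77 ± 0.30, and read 10.12 in PH3 rat 149 against 8.48 to 9.11 in the other PH3 rats and 8.11 to 8.82 in Air. The p53 target Cdkn1a averaged 6.47 in PH3 and 6.08 in Air, with an interval of -0.54 to 1.33.

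The genes of the enzyme that phosphine blocks, and of the rest of the respiratory chain, were close between groups. The 22 measured cytochrome c oxidase genes had a median difference of 0.013, with 13 higher. Cox4i1, a core-associated subunit, averaged 12.26 in PH3 and 12.27 in Air. The 2 ends of the list were tissue-restricted isoforms: Cox8b differed by -0.72 ± 0.94 and Cox6a2 by 0.27 ± 0.11. Cox8b, a muscle and brown fat isoform, read 5.46, 7.24, 5.44 and 7.61 in PH3, against 8.18, 5.14, 7.75 and 7.57 in Air, the arrays high for it being those high for Ucp1. The 38 genes of complexes I, II, III and V had a median of 0.008 and lay between -0.13 and 0.18. Among 17 peroxide and superoxide enzymes the median was 0.018. Catalase, Cat, averaged 12.40 in PH3 and 12.37 in Air, with a narrow interval of -0.13 to 0.20. Gpx1, the main cytosolic glutathione peroxidase, differed by 0.15 ± 0.06 and Gpx2, an epithelial form, by -1.04 ± 0.49, neither passing. The 22 NRF2 targets had a median of 0.012, with no member at an unadjusted p under 0.05. The 24 genes of the integrated stress response had a median of 0.014, likewise with none.

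Metallothioneins, which bind zinc and copper, went both ways. Mt1 averaged 6.07 in PH3 and 6.42 in Air, while Mt2A read 12.79, 12.79, 12.81 and 12.97 in PH3, against 12.72, 12.58, 12.74 and 12.44 in Air (0.22 ± 0.11, unadjusted p = 0.0475). Pdk4, which shuts down pyruvate oxidation in fasting, averaged 7.31 in PH3 and 7.02 in Air. Fatty acid oxidation and PPAR targets were higher in 22 of 28 members, with a median of 0.12 and 2 members, Ehhadh and Eci1, at an unadjusted p under 0.05. For scale, 51.44% of all genes were higher. Eci1, an enzyme for unsaturated fatty acids, read 12.22 in PH3 rat 149 and 11.04 to 11.42 in the other PH3 rats, against 10.99 to 11.37 in Air. Fatty acid synthesis genes were higher in 4 of 17, with a median of -0.06. All 15 measured genes of the renin-angiotensin system and brush border peptidases were higher in PH3, by 0.003 to 0.27, with none at an unadjusted p under 0.05, and the count was 11 of 15 without PH3 rat 149 and Air rat 145. Of 19 organic ion transporters, 17 were higher, with a median of 0.10, but 12 of 19, with a median of 0.018, without PH3 rat 149 and Air rat 145, and 11 of 19 without PH3 rat 91 and Air rats 83 and 90. The same exclusion of rats 149 and 145 gave a median of 0.06 for fatty acid oxidation, -0.12 for fatty acid synthesis and -0.01 for the sodium, potassium and water transport genes described next. Sodium, potassium and water transport genes were higher in 8 of 27, with a median of -0.08, and Sgk1 had the largest difference among them.

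**Figure D5:**
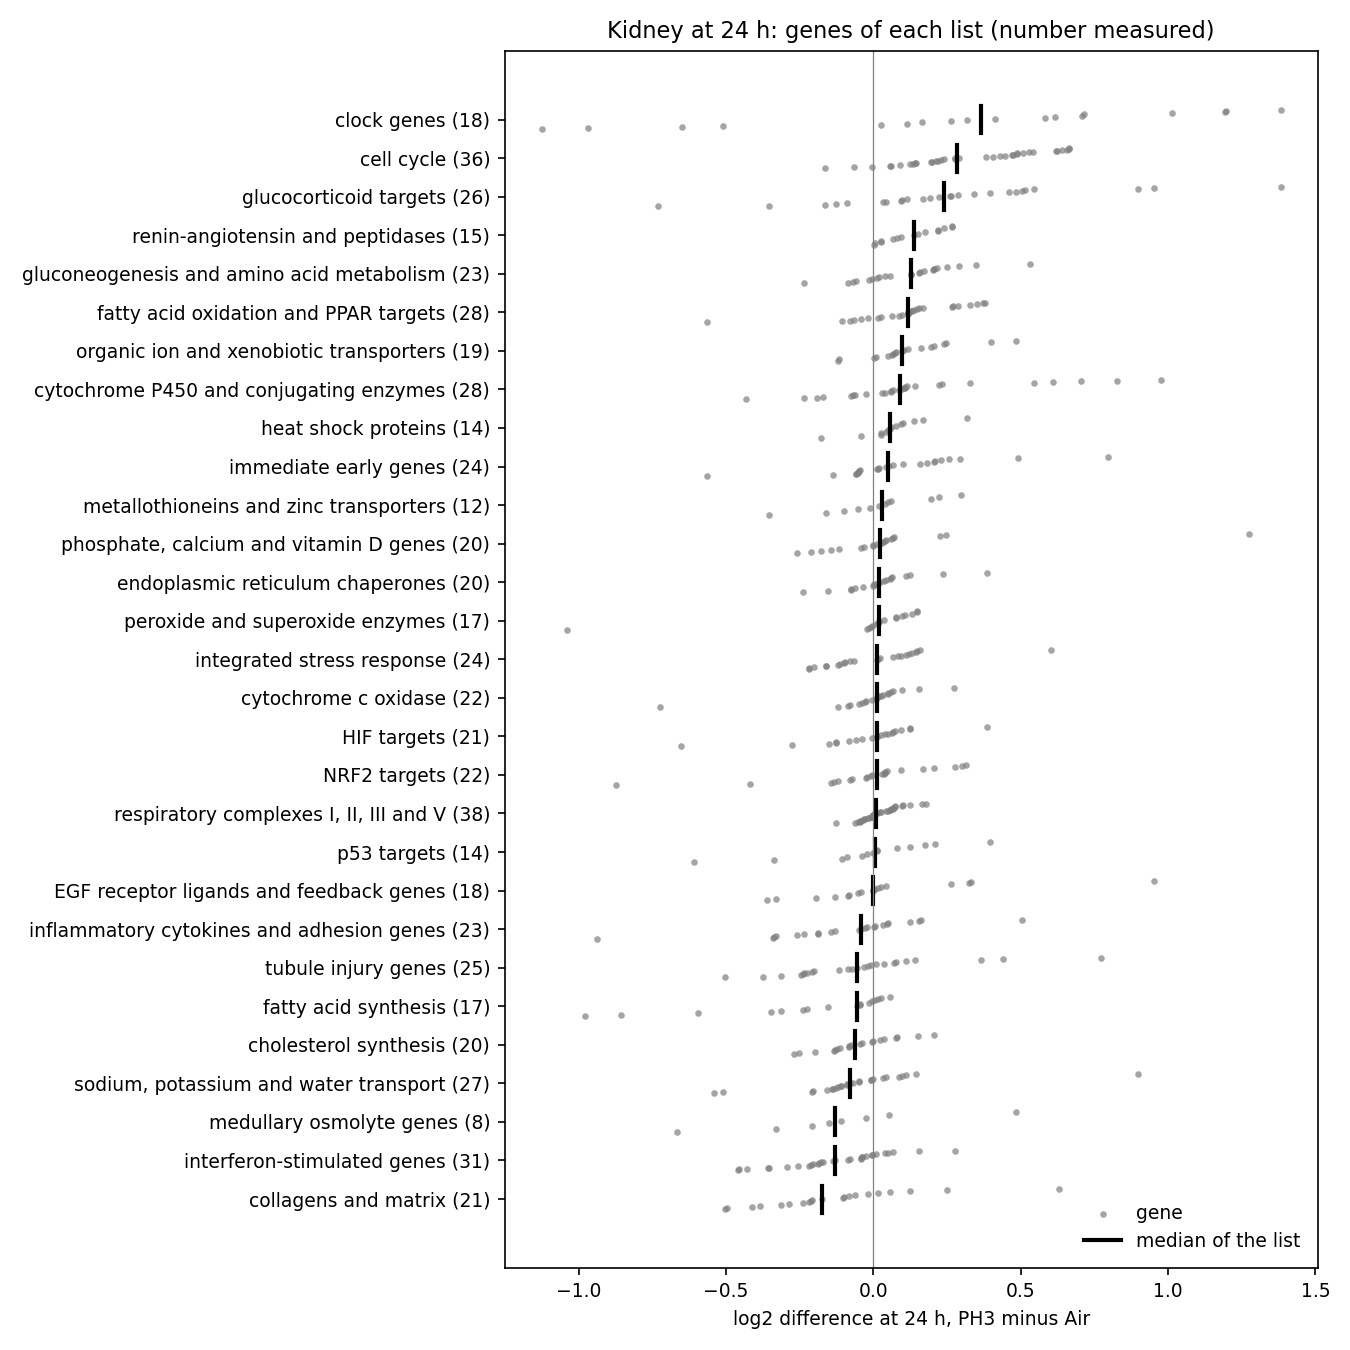
Log2 difference at 24 h, PH3 minus Air, for the measured genes of each of 29 pathway lists, 1 grey point per gene, with a black bar at the list's median and lists ordered by it. The medians run from 0.36 for clock genes to -0.17 for collagens and matrix, and the lists between the 3 at the top and the 1 at the bottom have medians from 0.14 to -0.13.

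Cell cycle genes had the next highest median among the 29 pathway lists, after clock genes. Of 36 measured, 33 were higher in PH3, with a median of 0.28 and 11 at an unadjusted p under 0.05, but 0 passed after adjustment. Among all genes, 51.44% were higher, and 1.39% were higher at that p. Cdk1, the kinase that drives entry into mitosis, read 8.21, 8.11, 8.29 and 8.01 in PH3, against 7.69, 6.88, 7.57 and 7.85 in Air (0.66 ± 0.20). Nusap1, a spindle protein, read 7.27, 7.19, 6.97 and 7.28 in PH3, against 6.30, 6.39, 6.61 and 6.83 in Air (0.64 ± 0.21). Rrm2, the ribonucleotide reductase subunit that makes DNA precursors, averaged 8.61 in PH3 and 7.98 in Air, with overlapping arrays. The list's mean level was 6.75, 6.89, 6.62 and 6.58 in PH3, against 6.23, 6.26, 6.33 and 6.72 in Air, so that Air rat 145 lay among the PH3 rats. Of the arrays that stood apart, Air rats 83 and 90 were low for this list, at 6.23 and 6.33, and PH3 rat 91 was at 6.62. Air rat 89, at 6.26, was also low and did not stand apart. Without PH3 rat 91 and Air rats 83 and 90, 28 of 36 were higher and the median was 0.23. Without PH3 rat 149 and Air rat 145, 34 of 36 were higher, the median was 0.51, above that of the clock list, and 14 had an unadjusted p under 0.05. For this list PH3 rat 149 was the lowest PH3 array and Air rat 145 the highest Air array. Leaving them out had to widen the gap in the list's mean, so the larger values add no support. At 1, 3 and 6 h the medians had been -0.18, -0.11 and -0.02. Cdk1, Nusap1 and Rrm2 were picked after their values were seen.

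Interferon-stimulated genes lay the other way, with 6 of 31 higher, a median of -0.13 and 3 lower at an unadjusted p under 0.05. Of all genes, 51.44% were higher, and 0.975% were lower at that p. Usp18, which damps interferon signalling, averaged 6.89 in PH3 and 7.35 in Air, and the antiviral gene Rsad2 averaged 8.54 in PH3 and 8.99 in Air. At 6 h the list's median had been -0.42. Collagens and matrix genes were higher in 5 of 21, with a median of -0.17, and fibroblast markers were higher in 3 of 10, with a median of -0.29. Without PH3 rat 149 and Air rat 145 these medians were -0.10 for the matrix list and -0.09 for the fibroblast markers, and that of the interferon list was -0.08, with no member at an unadjusted p under 0.05. The part of fibroblast markers in the matrix list was not tested. Ccn2, a matrix-associated growth regulator formerly called Ctgf, was an exception within that list: it read 11.46, 10.93, 11.18 and 11.24 in PH3, against 10.87, 10.22, 10.60 and 10.60 in Air (0.63 ± 0.18, unadjusted p = 0.00194). Of 23 inflammatory genes, 9 were higher, and the monocyte chemokine Ccl2 averaged 6.39 in PH3 and 7.33 in Air, without passing.

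Mean levels of cell type markers overlapped between groups in the lists given here. Markers of the convoluted proximal tubule averaged 11.49 to 11.64 in PH3 and 11.38 to 11.59 in Air, and those of the thick ascending limb 10.06 to 10.50 in PH3 and 10.21 to 10.49 in Air. Collecting duct principal cell markers averaged 8.39 to 8.46 in PH3 and 8.31 to 8.73 in Air. Macrophage markers averaged 6.495 to 6.72 in PH3 and 6.58 to 6.73 in Air, and neutrophil markers, dim throughout, 3.99 to 4.13 in PH3 and 3.96 to 4.20 in Air. Fibroblast markers averaged 8.15 to 8.48 in PH3 and 8.33 to 8.73 in Air. In PH3, 2 of 14 T and natural killer cell markers were higher, with a median of -0.11, as were 2 of 12 endothelial markers, with a median of -0.05. The T and natural killer cell markers were dim too, averaging 4.15 to 4.44 in PH3 and 4.20 to 4.53 in Air. These means lie below the 25th percentile of all genes, 4.54. The share of all genes that were higher was 51.44%. No gene of these 19 marker lists passed the test. Markers from outside the kidney varied most: hepatocyte markers averaged 5.27 to 7.12 in PH3 and 5.18 to 7.08 in Air, and adipocyte markers 6.23 to 7.31 in PH3 and 6.46 to 7.50 in Air. Both ranges overlapped between groups, and none of the 13 measured hepatocyte or 9 adipocyte markers had an unadjusted p under 0.05.

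The same probe sets at 24 h in brain and lung (4 PH3 and 4 Air arrays each) and heart (3 PH3 and 2 Air arrays), partly from the same rats, give the kidney values a setting, with no test of the difference between organs. Errfi1 was higher in PH3 by 0.42 in brain, 0.53 in heart and 0.44 in lung, and Depp1 by 0.29, 0.44 and 1.13, and none of these 6 differences passed. Per1 differed by -0.05 in brain, 1.03 in heart and 1.25 in lung, and Bmal1 by -0.04, -0.85 and -0.69. Dbp differed by 0.11 in brain, 0.63 in heart and 2.07 in lung, where its difference was larger than the 1.20 in kidney. Per3 differed by 0.38, 0.82 and 1.27 in these organs. Npas2 differed by -0.75 in brain, -0.48 in heart and -0.38 in lung. The brain was thus level for Per1 and Bmal1 but not for every clock gene, and none of these differences passed. Nfkbia was higher by 0.76 in brain, 0.73 in heart and 0.61 in lung. Sgk1 was higher by 0.88 in brain and 0.30 in heart and lower by 0.24 in lung, again with no call. The cell cycle genes Cdk1 and Rrm2, higher in PH3 in kidney, were lower in the other organs. Cdk1 differed by -0.14 in brain, -1.33 in heart and -0.55 in lung, and Rrm2 by -0.22, -1.33 and -0.63, without passing.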

How the data were processed

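RNA from rat kidney was hybridised to Affymetrix 3′ expression arrays after biotin labelling. Per the labels and the submitters' processing notes, the authors summarised the arrays by RMA, with Affymetrix Expression Console and Partek also named, and deposited log2 signals. RMA gives every array the same distribution of probe signals before it summarises them, so a shift common to all genes is removed. The deposited values of the 8 arrays ran from 2.68 to 14.05, with medians of 5.29 to 5.35. Arrays have no read depth, and their number limits the precision. Genes were named from the platform annotation, and 18989 of the 19068 probe sets with 1 symbol matched RefSeq (GRCr8). Where a gene had several probe sets, the one with the highest mean over the kidney arrays was used. A dimmer probe set of Per3, Klf9, Gabbr2, Apln, Col6a3 or Rab31 differed by less than the one used. That of Apln averaged 6.01 over the kidney arrays, against 3.60 to 3.97 for those of the other genes.

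Differences were fitted with limma 3.58.1 in R 4.3.3 on all 32 kidney arrays, with 1 coefficient per exposure and time, moderated tests with a trend in the mean and Benjamini-Hochberg adjustment over 13438 genes, called at 0.05. The code was tested on simulated data. A second contrast set the 24 h effect against the mean effect at 1, 3 and 6 h. Named genes are those called in each direction, filled up to 10 by the smallest p, a panel of 12 stress, injury and metal genes, and the 6 with the smallest p for the contrast of times. List members named beyond these were chosen after their values were seen. The members and gene lists were chosen with earlier results of these data known. Alternatives changed the moderation, weights, scaling, probe set rule, filter and arrays, and leaving out 3 arrays or adding the 3′ to 5′ covariate was chosen after seeing the data. The exclusion of PH3 rat 149 and Air rat 145 likewise rests on signals in these data.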

Additional observations from a re-analysis of the deposited data

Results flagged for a closer look

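Single arrays stood far from the other 3 of their group in 8 of 112 groups checked (7.14%), where chance gives about 1 in 20, by the gap of the extreme array relative to the group's range. Among genes, Mt2A in PH3 rat 149 read 12.97, with the other PH3 rats at 12.79 to 12.81. In Air rat 89 Havcr1 read 5.565, with the other Air rats at 4.10 to 4.30, and Apln read 6.834, with the others at 7.22 to 7.28. Cemip in Air rat 83 read 8.114, with the other Air rats at 7.29 to 7.37. Among marker means, podocyte markers in PH3 rat 91 averaged 6.858, with the other PH3 rats at 6.505 to 6.55, and macrophage markers there averaged 6.717, with the others at 6.495 to 6.53. Distal convoluted tubule markers averaged 7.492 in PH3 rat 70, with the other PH3 rats at 7.32 to 7.33. Red blood cell markers averaged 6.897 in Air rat 145, with the other Air rats at 7.45 to 7.56. The effect of PH3 differed between 24 h and the mean of the earlier times for Tnfrsf12a, by -2.113 on the log2 scale, and for Atf4, by -0.7034, both by a test of the difference itself.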

How the results depend on the processing

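The count of 2 genes called at 24 h kept its size under 8 planned changes of moderation, scaling, probe set rule, filter and fit, and Errfi1 and Depp1 were the genes called in each. It was 4 with array weights, which added Klf9 and Per1, 2 to 3 when 1 array was left out, 1 without PH3 rat 149 and Air rat 145, and 0 without PH3 rat 91 and Air rats 83 and 90, where 3 PH3 and 2 Air arrays remain. In that last fit 298 genes had an unadjusted p under 0.05. Over the 20 alternatives the Errfi1 difference ran from 0.83 to 1.05 and passed in 19, and that of Depp1 ran from 1.54 to 1.76 and passed in 18. The count of genes whose effect differed between times, 2, depended on more settings: it was 1 without the trend, with robust moderation and with quantile normalisation, 3 with array weights, 4 with median centring, 33 with the 3′ to 5′ covariate, 0 to 2 when 1 array was left out, and 0 both without PH3 rat 149 and Air rat 145 and without PH3 rat 91 and Air rats 83 and 90. Small 24 h differences that changed sign were those of Tacc2 (-0.008183 without PH3 rat 91, -0.01503 to 0.0865 over all 8 fits without 1 array, the lowest without Air rat 145, and -0.001795 with the covariate), Atf4 (0.02913 without PH3 rat 149 and Air rat 145) and Tnfrsf12a (0.1372 without PH3 rat 91 and Air rats 83 and 90). The cause of these changes was not tested. No paired analysis was possible because the PH3 and Air kidney rats carry different rat numbers. Leaving out an array assumes that the remaining ones vary like the other groups. Dim genes, with signals under the 25th percentile of all genes, 4.54, are measured close to background, so the size of their differences is uncertain.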

Other observations

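Errfi1 and Per3, both among the 10 genes with the smallest p in the higher direction, lie close together on chromosome 5 in the RefSeq annotation of GRCr8, with 7 annotated genes between them. Of those, 3 were measured in kidney at 24 h. Park7, a redox-sensitive chaperone, differed by -0.01 ± 0.06 between PH3 and Air, Tnfrsf9, a costimulatory receptor of T cells, by -0.30 ± 0.24, and Uts2, which encodes the vasoactive peptide urotensin 2, by 0.31 ± 0.15, and none passed. The place of both genes was looked up after their values were seen, and no test of it was made. S100g, the vitamin D-dependent calcium-binding protein calbindin-D9k, read 6.07, 5.40, 6.89 and 8.65 in PH3 rats 70, 85, 91 and 149, against 5.03, 5.94, 5.37 and 5.56 in Air rats 83, 89, 90 and 145, a difference of 1.28 ± 0.45 that did not pass and was largest in rat 149.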
